A study of Mus musculus with 186 samples.

Results

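The cells described here are the sorted basal cells of the adult mammary gland of FVB/NJ mice, an albino laboratory strain. Wells were taken by their label as basal, and a well was kept if it held at least 50000 reads and 1000 genes after genes of the mitochondrial genome and genes of ribosomal proteins had been removed. This left 72 of 96 basal wells, out of 186 wells in the series. To learn how varied the epithelium of the gland is, the study isolated cells in the chambers of a Fluidigm C1 chip, where the RNA of each cell is copied into full-length cDNA. Basal cells had been sorted as negative for CD31, CD45 and TER119 and positive for CD24 with high CD29, and luminal cells as positive for CD24 with low CD29. Neither population had been treated. The luminal cells, of which 76 of 90 wells passed a minimum of 100000 reads and 1500 genes, serve here as the other population. The labels also give a PCR plate: 50 passing basal cells came from plate A and 22 from plate B, while 24 passing luminal cells came from plate B and 52 from plate C. No mouse is named for any cell, so a population is a single sample here, and neither tests nor standard errors were computed.

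Basal cells form the outer layer of mammary ducts and alveoli. Most of them are myoepithelial: they are epithelial cells that carry keratins 5 and 14, lie on the basement membrane, and contract through the actin and myosin proteins otherwise typical of smooth muscle. Oxytocin released during suckling makes them squeeze milk towards the nipple, and the transcription factor p63 (gene Trp63) is needed for the layer to form.

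The basal cells held between 69933 and 1968860 reads after gene removal, with a median of 1189247, where a read is a sequenced read pair assigned to a gene. When each cell was thinned to 50000 reads, plate A cells showed a median of 2852.5 genes (lowest 1077, highest 6098), plate B cells a median of 1564 (650 to 3640), and luminal cells a median of 3387.5. The plates thus differed in the number of genes seen at equal depth, and plate B values are given beside the pooled ones for the lists and for most genes named with a ratio. The wells just inside the read minimum were basal cells 17 and 54, both on plate A, with 69933 and 94899 reads and with 83.1% and 66.8% of deposited reads in mitochondrial genes. The nearest wells outside it were basal cell 38, with 28393 reads, and basal cell 68, with 37461 reads.

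The label was checked against 6 markers, Krt14, Krt5, Acta2, Trp63, Nrg1 and Tpm2. At 50000 reads, 31 basal cells held a read of all 6 markers, 24 held 5, 11 held 4 and 3 held 3, whereas 51 luminal cells held none and 18 held 1. Most wells therefore carried the program that their label names. Basal cell 82 held 1 of the markers, and basal cells 72 and 90 held none. All 3 of those cells lay on plate B.

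Markers of other cell types set 10 basal wells apart, 3 on plate A and 7 on plate B. Basal cells 63, 71, 72, 80, 82 and 95 held between 6 and 14 of 20 endothelial markers, although the sort had excluded CD31 (gene Pecam1), and no plate A cell held more than 3. Basal cell 56 held 18 of 20 fibroblast markers, and basal cells 13, 20 and 90 held 11, 10 and 11 of 20 luminal markers. In the other direction, luminal cell 63 held 5 of the 6 basal markers and luminal cell 23 held 3, and luminal cell 63 supplied 78.1% of all luminal Acta2 reads. Counts are therefore also given without the 10 basal wells, a rule that was chosen after seeing the data. Of 19 measured endothelial markers, 7 were higher and 2 lower in basal cells with all wells, and 16 were higher and none lower on plate B. Without the 10 wells, 6 of which were chosen by these markers, 1 was higher and 14 were lower. Luminal wells were not set apart by such markers, and the highest luminal cell, on plate C, held 16 endothelial markers.

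**Figure D1:**
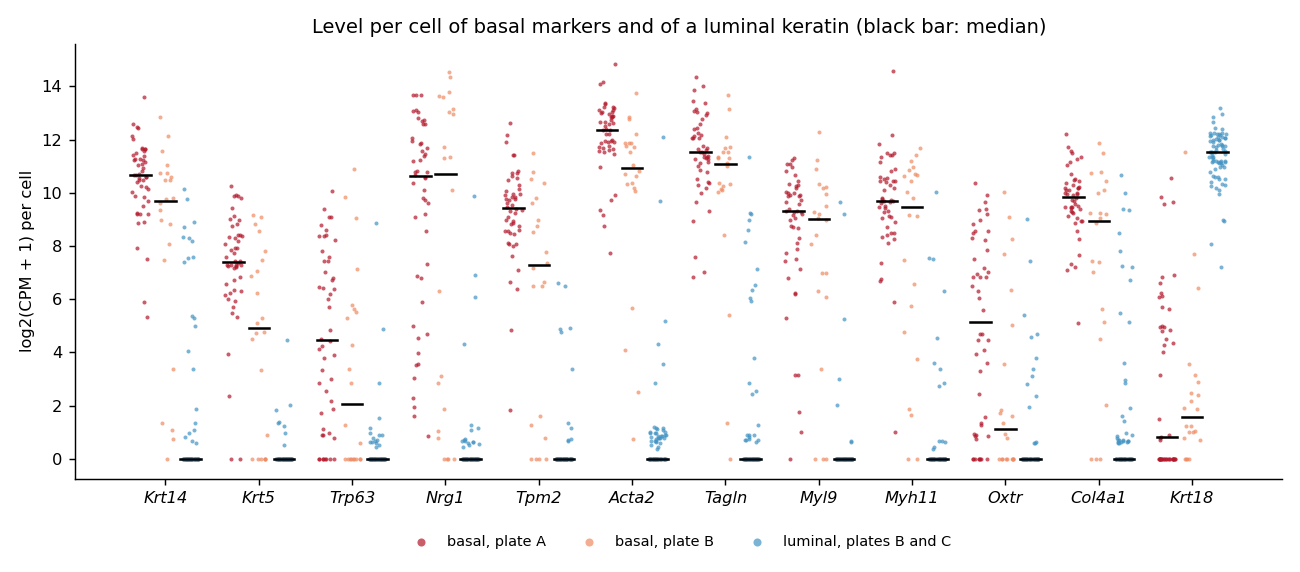
Level of basal markers and of the luminal keratin Krt18 in each cell, as log2 of CPM plus 1 (y axis, CPM being reads scaled to the library's total), for basal cells of plate A, basal cells of plate B and luminal cells of both of their plates (x axis, 12 genes); each point is a cell and each black bar a median. Acta2 lay at a median of 5315 CPM on plate A and 1968 CPM on plate B against 0 in luminal cells, with 0.693 CPM in the lowest basal cell and 4372 CPM in luminal cell 63.

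To describe the program across genes, reads were summed over the cells of a population and scaled to a common library total (CPM), and the log2 ratio of basal over luminal was taken after adding 1 CPM to each side. A gene was called higher or lower at a log2 ratio of at least 1 or at most -1, a rule of size with no test behind it. Of 14773 genes that passed a filter on low counts, 2697 (18.3%) were higher in basal cells and 4192 (28.4%) were lower. On plate B alone, where both populations lay on the same plate, 17.3% were higher and 41.4% lower. Both comparisons called 1504 genes (10.2%) higher, while 659 of the 2697 (24.4%) had a ratio under 0 on plate B. Among the 136 measured members of 8 lists of basal functions, 97 (71.3%) were higher and 12 lower, and 74 were higher on plate B as well. Without the 10 wells set apart 91 were higher. The lists were fixed from what the genes are known to do, with earlier results of these data known. Of 197 measured genes of a list of 200 basal genes that the study had taken from earlier bulk RNA-seq, 182 were higher and none lower, and on plate B 137 were higher and 11 lower, with 18 of the 182 under 0 there.

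By the ratio, among 318 genes of at least 100 CPM that were seen in at least 50% of basal cells and called on plate B too, the first 20 were Nrg1, Serpina3h, Tpm2, Krt5, Il17b, Acta2, Moxd1, Igfbp3, Ccnd2, Col17a1, Scn7a, Myh11, Tagln, Ecrg4, Krt15, Serpinb11, Cnn1, Vcan, Crispld2 and Myl9. Their log2 ratios ran from 8.14 for Nrg1 to 5.43 for Myl9. Moxd1, related to monooxygenases that act on dopamine, had 1549 CPM against 16.9 CPM in luminal cells and was seen in 87.5% of basal cells. Ccnd2, a D-type cyclin, stood at 1585 against 19.1 CPM, but with a median of 177 CPM per cell on plate A and 33.1% of all basal reads in 1 cell. Scn7a, of the sodium channel family, likewise had 27.7% of its basal reads in 1 cell. Serpina3h is annotated as a transcribed pseudogene within the serpin family, and reads of its relatives may have been counted there.

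Basal keratins build the intermediate filaments of the layer. Of the 5 listed, 4 were higher and 1 lower, on plate B as well, and the median log2 ratio of the list was 5.41 against -0.18 over all genes tested. Krt14 spanned 38.9 to 12475 CPM on plate A with a median of 1624, and 0 to 7414 CPM on plate B with a median of 834. Its sums were 1945 and 47.5 CPM in basal and luminal cells (log2 ratio 5.33), and a read was seen at 50000 reads in 94.4% of basal cells (95% Clopper-Pearson interval 86.4 to 98.5) and 18.4% of luminal cells (10.5 to 29.0). Every plate A cell held Krt14, and on plate B 81.8% did. Krt5, its partner keratin in stratified epithelia, was less abundant, with a median of 167 CPM on plate A and 29.8 CPM on plate B, but it was almost absent from luminal cells (1.32% of them, log2 ratio 7.45). Of the 72 basal cells, 58 held both Krt14 and Krt5, where the product of the shares gives 55.7. With Krt14 in every plate A cell the overlap was fixed there, and on plate B 13 cells held both against 11.5. Krt17 followed with 1352 against 30.8 CPM, and was seen in 96.0% of plate A and 50.0% of plate B cells. Krt15 divided the basal cells more than these: it was seen in 68.0% of plate A cells, in 9.09% of plate B cells and in 50.0% of all 72. Each of the 36 cells with Krt15 also held Krt14, where the product of the shares gives 34. That overlap too was fixed on plate A, and on plate B 2 cells held both against 1.64. Krt6a, a keratin of hair follicles and wounds, was the exception at 10.5 against 88.7 CPM, with 88.0% of its basal reads in basal cell 81. The luminal keratins Krt8, Krt18 and Krt19 were not wholly silent in basal wells, and were seen in 55.6%, 34.7% and 25.0% of them against 96.1%, 100% and 98.7% of luminal cells.

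The contractile list held 1.97% of all basal reads and 0.0809% of luminal reads. Of its 24 genes, 23 were higher in basal cells and 1 lower, with a median log2 ratio of 3.36, and 21 were higher on plate B. Without the 10 wells set apart 22 were higher, and without the 2 luminal wells that held at least 3 basal markers 23 were higher with a median of 4.01. Acta2, the smooth muscle form of actin, lay at chr19:34240336-34255585 and was the contractile gene with the highest level per length. It spanned 214 to 29501 CPM on plate A (median 5315) and 0.693 to 13848 CPM on plate B (median 1968), against a median of 0 and a highest value of 4372 CPM in luminal cells. Every basal cell thus had Acta2 reads, whereas most luminal cells had none. The sums were 5540 CPM (95% Poisson interval 5524 to 5556) and 60.2 CPM, a log2 ratio of 6.50 that became 8.60 without the 2 luminal wells and 11.16 on plate B. Intervals cover counting error only, and they were far narrower than the spread between cells.

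The other contractile genes ranged from some seen in nearly all cells to some seen in few: 14 of the 24 were seen in at least 50% of basal cells, against 9.77% of all genes tested, and 9 in at least 90%, against 1.17%. Tagln, the actin-binding transgelin, was at a median of 2938 CPM on plate A and 2154 CPM on plate B and was seen in 97.2% of basal and 13.2% of luminal cells. Myosin components were close behind: Myh11, the smooth muscle heavy chain, was seen in 91.7% of basal cells, Myl9, the regulatory light chain, in 87.5%, and Mylk, the kinase that switches the light chain on, in 86.1%. Their log2 ratios were 5.95, 5.43 and 5.20, and each was larger on plate B (7.21, 9.79 and 7.57). Tpm2, a tropomyosin that lies along actin filaments, was at a median of 689 CPM on plate A and 154 CPM on plate B. It was seen in 100% and 68.2% of the cells of those plates and in 7.89% of luminal cells. Cnn1, the actin-binding calponin, was seen in 80.6% of basal cells and 2.63% of luminal cells, with 93.0% of its luminal reads in 1 cell. Cytoskeletal genes that luminal cells also used differed less: Tpm1, Actn1, Flna, Cald1 and Myl6 were seen in 95.8% to 98.6% of basal cells with log2 ratios from 2.10 to 3.25, and in 38.2% to 82.9% of luminal cells.

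Other contractile genes were seen in fewer cells, and in 5 of the 24 a single cell held over 50% of the basal reads, which held for 37.7% of 14509 genes with basal reads and for 4.36% of 2062 genes of at least 100 CPM. Actg2, the enteric actin, was seen in 47.2% of basal cells, and at 60.0% on plate A and 18.2% on plate B. All 34 cells with Actg2 held Acta2, where the product of the shares gives 32.6. Every plate A cell held Acta2, so the overlap was fixed there, and on plate B 4 cells held both against 3.45. Lmod1, which starts new actin filaments in smooth muscle, was seen in 34.7%, and basal cell 84 supplied 58.5% of its reads (log2 ratio 5.15, and 3.91 without that cell). Synpo2, Kcnmb1, Jph2, Pgm5 and Cacna1c were seen in 5.56% to 15.3% of basal cells. Kcnmb1, the accessory subunit of a calcium-activated potassium channel, had no read at 50000 reads on plate B and a log2 ratio there of 0.10. Pgm5 passed 1 only with the 10 wells set apart (1.13, and 0.13 without them). Des, the muscle intermediate filament desmin, was close to absent at 0.0595 CPM, against 2.05 CPM in luminal cells.

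The regions in front of transcript starts of these genes were searched for the CArG box, the site of serum response factor. That factor directs smooth muscle genes in other tissues together with its partner myocardin. The window was the 250 bases before the transcript starts of the RefSeq promoter table (build GRCm38.p6), both strands are covered because the box reads alike on each, and a match could miss the box by 1 base. A match stood in 10 of 19 contractile genes with an entry (52.6%) against 21.1% of 27025 genes of the table, and an exact box in 2 of 19 against 1.62%. By comparison 5 of 12 integrin genes, 4 of 16 luminal markers, 2 of 14 basement membrane genes and 2 of 17 secreted signals held a match. The windows of Cnn1 and Tpm2, both among the 20 genes of largest ratio, held none, and Tagln, Myh11, Actg2 and Nexn were among those with no entry. A match is a run of letters and not a measured site. Stretches of 30 bases around the matches of 6 of these genes follow, with the matched letters in capitals and the distance given from the match's first base to the transcript start, because they show how far the letters vary between genes of this list. The stretches of Acta2, the second of Tpm1 and that of Myl6 overlap an exon in GENCODE M21, and the others lie outside exons. Both Acta2 stretches lie inside the span of Acta2 given above, because the transcript start used is not the outer end of that span.
Acta2 (chr19:34255438-34255467, minus strand, 84 bases before the start): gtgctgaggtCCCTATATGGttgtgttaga
Acta2 (chr19:34255388-34255417, minus strand, 34 bases before the start): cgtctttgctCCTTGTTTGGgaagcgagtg
Myl9 (chr2:156775293-156775322, plus strand, 161 bases before the start, exact): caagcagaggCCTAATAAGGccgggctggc
Myl9 (chr2:156775355-156775384, plus strand, 99 bases before the start): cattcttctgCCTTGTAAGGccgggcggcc
Tpm1 (chr9:67049415-67049444, minus strand, 221 bases before the start): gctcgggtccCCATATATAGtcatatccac
Tpm1 (chr9:67049274-67049303, minus strand, 80 bases before the start): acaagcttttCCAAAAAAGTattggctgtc
Lmod1 (chr1:135324614-135324643, plus strand, 189 bases before the start): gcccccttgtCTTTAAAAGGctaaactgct
Lmod1 (chr1:135324639-135324668, plus strand, 164 bases before the start): ctgctctgtaCTAAATTTGGtcacgcagcg
Flna (chrX:74246559-74246588, minus strand, 44 bases before the start): ctttcgcataCATTTAAAGGgctcgctctt
Myl6 (chr10:128493040-128493069, minus strand, 50 bases before the start, exact): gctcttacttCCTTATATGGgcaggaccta

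**Figure D2:**
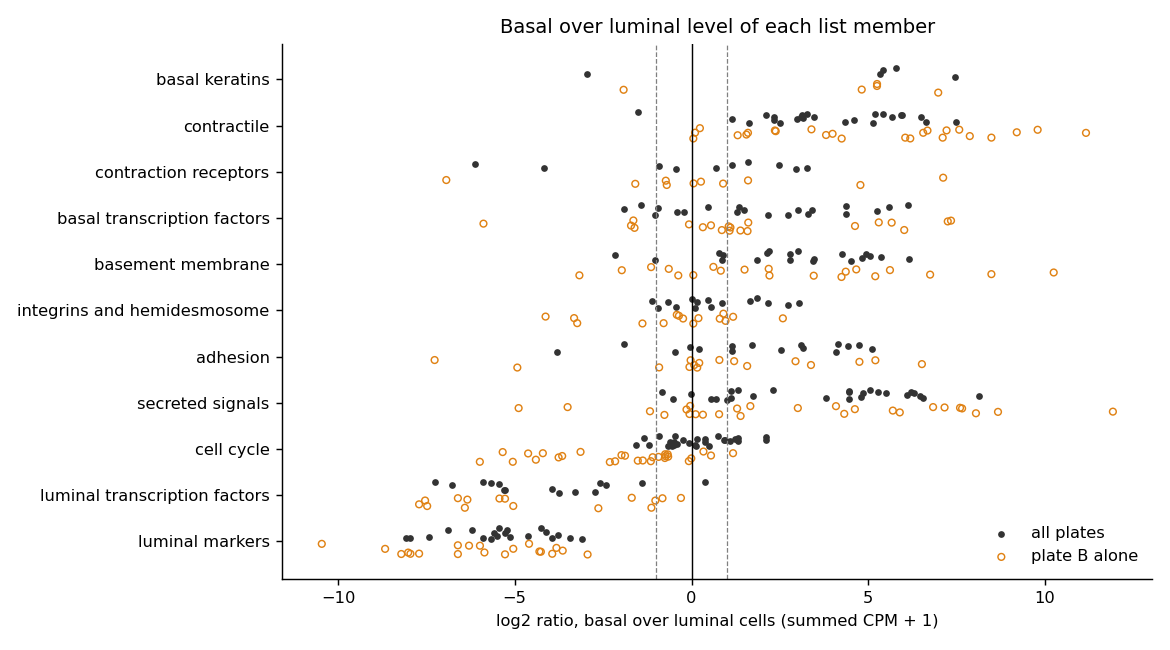
Log2 ratio of basal over luminal cells (x axis, summed CPM plus 1) for each measured member of 11 gene lists (y axis); filled points use all plates, open points plate B alone, and dashed lines mark the call at 1 and -1. Contractile genes lay to the right of 0 except Des, at -1.53, and luminal markers to the left, and cell cycle genes lay around 0 over all plates (median 0.11) but lower on plate B (median -1.45).

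Receptors that start contraction were sparse, and Oxtr was the clearest. Oxtr encodes the oxytocin receptor. It had a median of 36.2 CPM on plate A (0 to 1323) and 1.22 CPM on plate B (0 to 1049), and was seen in 52.8% of basal and 9.21% of luminal cells, with 76.8% of the luminal reads in 1 cell. The log2 ratio was 2.95, and 4.78 on plate B. The 38 cells with Oxtr all held Acta2, where the product of the shares gives 36.4. Every plate A cell held Acta2, so the overlap was fixed there. On plate B 6 cells held both, against 5.18 from the product. Over the list, 5 of 10 measured receptors and signalling partners were higher and 2 lower. On plate B 3 were higher and 2 lower, and without the 10 wells set apart 3 were higher and 3 lower. The shares over all genes tested were 18.3% higher and 28.4% lower, and 17.3% and 41.4% on plate B. Ednrb, an endothelin receptor, was at 1.61 over all plates and at -1.31 between basal cells of plate A and luminal cells of plate C, and basal cell 80, one of the wells with endothelial markers, supplied 61.0% of its reads. Itpr1, the calcium release channel of the endoplasmic reticulum, fell below the call without the 10 wells (1.15 to 0.53). Agtr1a, an angiotensin receptor, was on the luminal side at -6.14.

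Transcription factors of the basal list were seen in fewer cells than contractile genes, with a median of 26.4% of basal cells per factor against 76.4%. Of 20 measured factors, 13 were higher and 3 lower, and 10 of the 13 were higher on plate B too. Over the whole list 12 were higher and 4 lower on plate B. Trp63 spanned 0 to 1063 CPM on plate A (median 20.9) and 0 to 1881 CPM on plate B (median 3.83), and was seen in 55.6% of basal cells (95% interval 43.4 to 67.3) and 3.95% of luminal cells (0.822 to 11.1). The log2 ratio of Trp63 was 4.38, and 6.58 without the 2 luminal wells, and luminal cell 63 held 92.8% of the luminal reads. Snai2, the zinc finger repressor Slug, and Id4, an inhibitor of helix-loop-helix factors, were seen in 38.9% and 44.4% of basal cells with log2 ratios of 6.13 and 5.58, and 7.34 and 5.30 on plate B. Irx4, a homeobox factor, was seen in 26.4% of basal cells and had no read at all in luminal cells, which allows at most 0.0263 CPM there. Its log2 ratio was 5.23, and 1.05 on plate B, where 2 of 22 cells held it. Of the 40 cells with Trp63 and the 28 with Snai2, 19 held both, where the product of the shares gives 15.6.

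Broad factors behaved otherwise. Nfib was seen in 98.6% of basal cells at a median of 3182 CPM on plate A and 4053 CPM on plate B, with 92.1% of luminal cells also positive and a log2 ratio of 1.35. Runx1, a factor of the Runt family, was seen in 97.2% and 89.5% of the populations at a log2 ratio of 1.29. Tead1, a partner of the Hippo pathway, was seen in 86.0% of plate A and 40.9% of plate B cells at a log2 ratio of 2.16. Srf, the serum response factor itself, was on the luminal side at 25.7 against 70.7 CPM (log2 ratio -1.42, and -1.65 on plate B), and myocardin, Myocd, was at 0.178 CPM in basal cells. Single cells decided some members: Aff3 had 95.4% of its basal reads in basal cell 44 and turned to -1.71 on plate B, and Zfhx4 had 60.3% in basal cell 73 (log2 ratio 3.02, and 1.72 without it). Of 15 factors of the luminal list, 14 were lower and none was higher, and on plate B 13 were lower.

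Genes of the basement membrane, on which basal cells rest, held 0.640% of all basal reads and 0.113% of luminal reads. Of 20 basement membrane genes 15 were higher and 2 lower, with a median log2 ratio of 2.89. On plate B 12 were higher and 3 lower. Col4a1 and Col4a2, the paired chains of collagen IV that are transcribed from a shared start region, were seen in 95.8% and 91.7% of basal cells. Col4a1 had a median of 929 CPM on plate A and 495 CPM on plate B, and Col4a2 medians of 653 and 490 CPM. Their log2 ratios were 4.26 and 5.36, and 5.61 and 10.25 on plate B. Sparc, a glycoprotein that binds collagen, was seen in 94.4% of basal and 15.8% of luminal cells. Laminin chains were split. Lama1 and Lama3 were higher at 4.82 and 4.52, and at 8.48 and 4.24 on plate B, Lamb3 was higher over all plates at 2.18 but not on plate B at -1.14, and Lama5 was lower at -1.04. Basal cell 92 supplied 42.8% of Lama1 and 57.4% of Lama5 reads, and Lama1 was at 4.05 without it. Nid1, the linker nidogen, was lower at -2.18 and at -1.97 on plate B, and Nid2 was close to 0 once basal cell 13, with 99.0% of its reads, was left out (3.48 to 0.10). Col17a1, a collagen that spans the membrane in hemidesmosomes, and Col18a1 were higher at 6.16 and 5.06, but were seen in 84.0% and 76.0% of plate A cells and 31.8% of plate B cells each.

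Integrins and hemidesmosome parts, which fasten the cells to that membrane, separated the populations less. Of 15 members, 5 were higher and 1 lower, with a median of 0.48. On plate B 2 were higher and 4 lower, with a median of -0.24, and over all genes tested 17.3% were higher there and 41.4% lower. Itga6 and Itgb1 were seen in 90.3% of basal cells each, with log2 ratios of 1.85 and 1.64, and 0.90 and 1.18 on plate B. Itgb1 encodes CD29, the protein used for the sort, so its difference is no independent observation. Itgb4, the partner of Itga6 in hemidesmosomes, was at 0.11, Itga2 turned from 2.17 to -0.24 on plate B, and Itgb5 was the member called lower, at -1.13. Among cell adhesion genes 11 of 16 were higher and 2 lower, and on plate B 7 were higher and 2 lower. Cdh3, the placental cadherin known from myoepithelium, was seen in 47.2% of basal cells and in no luminal cell at 50000 reads (0.0614 CPM at full depth, log2 ratio 5.09, and 3.38 on plate B). Cdh1, the epithelial cadherin, ran the other way, with 51.6 against 196 CPM and a log2 ratio of -1.91, and -7.27 on plate B. Gja1, the gap junction protein connexin 43, was seen in 93.1% of basal cells at a log2 ratio of 4.42 and 4.75 on plate B, while the connexin Gjb2 was at -3.81. Perp and Pkp1, which serve desmosomes, were at 2.54 and 4.13, and at 1.57 and 0.79 on plate B.

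Signals sent out by basal cells gave the largest ratio of all. Nrg1, a growth factor for the ERBB receptors on neighbouring cells, lay at chr8:31807452-32891609. It spanned 0.796 to 13066 CPM on plate A (median 1578) and 0 to 23750 CPM on plate B (median 1815), against a median of 0 and a highest value of 952 CPM in luminal cells. Both plates thus held cells far below the median of Nrg1 and cells far above it, and a read was seen in 81.9% of basal and 5.26% of luminal cells. The sums were 3763 and 12.4 CPM, a log2 ratio of 8.14 that became 10.23 without the 2 luminal wells. The list as a whole had 21 of 26 members higher and none lower, with a median of 4.45. On plate B 16 were higher and 3 lower, and the median was 2.34.

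The other signals were mostly rarer. Cxcl14, a chemokine, was seen in 79.2% of basal cells with 87.3 CPM as the median on plate A. Il17b, a cytokine, and Igfbp3 and Igfbp2, which bind insulin-like growth factors, were seen in 55.6%, 65.3% and 56.9%. Igfbp5 was abundant in both populations, at 2004 CPM against 2038 CPM on the luminal side. The Notch ligand Jag1 was seen in 90.3% of basal and 78.9% of luminal cells with a log2 ratio of 1.01 (0.97 without the 10 wells set apart), and the ligand Dll1 in 52.8% and 2.63% with a ratio of 4.80. Inhibitors of WNT signalling were among the higher members: Wif1 was at 6.45, Sfrp1 at 5.05 and Sostdc1, which also restrains BMPs, at 4.44, and they were seen in 45.8%, 23.6% and 44.4% of basal cells. WNT ligands were rare, with Wnt10a and Wnt6 in 16.7% and 15.3% of basal cells and in no luminal cell at 50000 reads. Pthlh, the hormone-related protein that acts on neighbouring stroma, was at 6.22 but in 16.7% of basal cells. Vegfa and Wnt5b were higher over all plates (1.73 and 1.12) and turned on plate B (-1.18 and -3.51).

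Surface proteins and genes used as stem cell marks were a mixed list, with 10 of 19 higher, 4 lower, and 8 higher and 5 lower on plate B. Over all genes tested 18.3% were higher and 28.4% lower, and on plate B 17.3% and 41.4%. Pdpn, the membrane glycoprotein podoplanin, was seen in 94.4% of basal and 15.8% of luminal cells, at medians of 1598 CPM on plate A and 3548 CPM on plate B. Lgr4 was seen in 95.8% of basal and 71.1% of luminal cells. Its relatives Lgr5 and Lgr6, receptors for R-spondins, were each seen in 13 of 72 basal cells and together in 3, where the product of the shares gives 2.35. Both sets of 13 had 12 cells on plate A and 1 on plate B, and basal cell 92 held 53.1% of Lgr5 reads (log2 ratio 4.90, and 3.88 without it). Procr was seen in 5.56% of basal and 5.26% of luminal cells. Egfr turned from 3.07 to -0.19 on plate B. Epcam, an epithelial surface protein, was lower in basal cells at -1.77, although 86.1% of them held it.

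**Figure D3:**
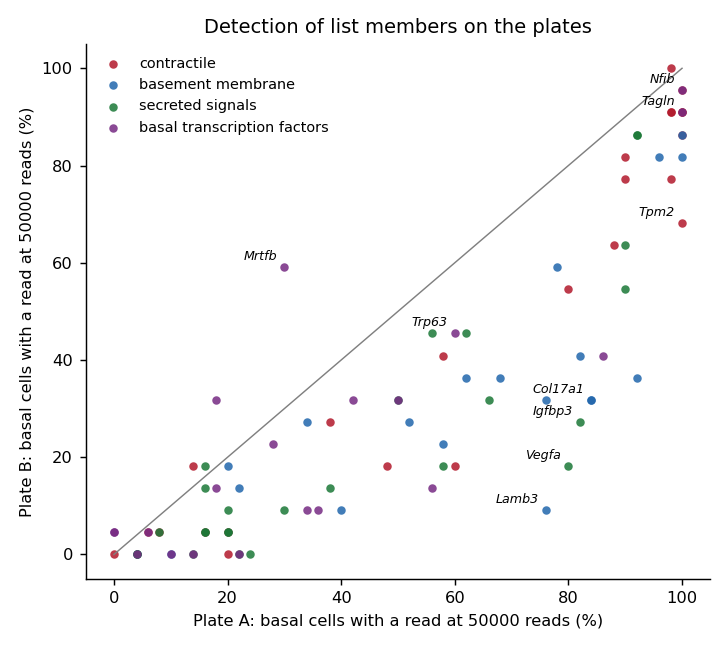
Share of basal cells with a read at 50000 reads on plate A (x axis, percent of 50 cells) and on plate B (y axis, percent of 22 cells) for members of 4 lists; the line marks equal shares. Most points lay below the line: Col17a1 was seen in 84.0% and 31.8% of cells and Lamb3 in 76.0% and 9.09%, while Nfib and Tagln were near the upper right corner and Mrtfb, at 30.0% and 59.1%, lay above it.

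A core of 173 genes (1.17% of those tested) was seen in at least 90% of basal cells at 50000 reads, against 227 genes in luminal cells, and the count came to 323 for plate A cells and 103 for plate B cells. Much of that core belonged to both populations, since 116 of the 173 were also seen in at least 90% of luminal cells. Of the 173, 49 were higher in basal cells and 4 lower, against 18.3% and 28.4% of all genes tested. Since the core was chosen by detection in basal cells, a split towards higher genes is partly set by that choice. On plate B 42 of the 49 were higher as well, and 16 of the 173 were seen in fewer than 50% of luminal cells. The 11 core genes with a log2 ratio of at least 4 were Tpm2, Acta2, Myh11, Tagln, Col4a2, Pdpn, Krt14, Gja1, Col4a1, 1600014C10Rik and Tgfbr3. Of these, Tgfbr3, a coreceptor for transforming growth factor beta, stood at 2744 against 165 CPM. Per length, Actb was first of all genes at 17249 RPKM (CPM per kilobase of gene length). Acta2 followed as sixth at 3112 RPKM and Tagln as eighth at 2497 RPKM, against 33.8 and 40.4 RPKM in luminal cells. Mt1, a metallothionein, Sdc4, a syndecan, and Septin2, of the septin filaments, were also among the first 10, with log2 ratios of 1.19, 0.51 and 0.78.

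Turning to variation inside the group, the contractile share of a cell ran from 0.104% to 7.08% of its reads with a median of 1.70%. Plate A cells had a median of 1.86% and plate B cells 1.48%, and luminal cells had a median of 0.0521% with 1.33% as the highest. The lowest basal values came from wells set apart above, 0.104% in basal cell 82, 0.117% in basal cell 90 and 0.229% in basal cell 72, which were also the wells with none or 1 of the 6 markers. The number of contractile genes seen per cell had a median of 15 (10 to 20) on plate A and 12.5 (4 to 16) on plate B, against 4 in luminal cells. Across cells, the contractile share was lower where more genes were detected, with Spearman's rho of -0.44 over 50 plate A cells and -0.37 over 22 plate B cells, and of -0.43 and -0.37 without the wells set apart. Both quantities come from the same library, and rho describes these cells only.

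Levels of contractile genes were related from cell to cell, as far as rank correlations over cells that share depth and complexity can describe. On plate A the median rho between pairs of 15 contractile genes was 0.18, against 0.066 over all pairs of 1957 genes seen in at least 50% of cells, and on plate B it was 0.27 over 13 genes against 0.064. Tagln was the gene whose level followed Acta2 most closely on plate A (rho 0.68, first of 1956 others), before Myl9 (0.56), with Cnn1 as the fourth (0.51) and Tpm2 as the fifth (0.47). On plate B the same pairs gave 0.43, 0.79, 0.43 and 0.17, so the order was not shared. Nrg1 and Acta2 were related in opposite directions, at -0.27 on plate A and 0.37 on plate B. Nrg1 and Ccnd2 gave 0.35 on plate A, where Ccnd2 ranked 131 of 1956 genes, and 0.82 on plate B, where it ranked 1 of 773. Secreted signals as a list had a median rho of 0.022 and 0.046, while basal keratins gave 0.19 over 4 genes on plate A and 0.48 over 3 on plate B, and cell cycle genes 0.54 over 3 genes on plate A. On plate B the median was also 0.31 over 4 basement membrane genes and 0.29 over 5 integrin genes, so contractile genes stood alone on neither plate.

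The first principal component of plate A held 7.29% of the variance of 7924 genes and followed the number of genes detected (rho 0.94). Cell cycle genes went with it (0.80) and the contractile share went against it (-0.45). Its upper end held Top2a, Tubb5 and Lbr and its lower end Icam1, Cacna2d1 and Pmepa1. On plate B the first component held 9.78% and again followed genes detected (0.94), with Nrg1 and Ccnd2 at its upper end. The second component of plate B, 7.64%, followed the number of endothelial markers (0.79), with Fabp4, Cd36 and Thbd at that end and Nrg1, Pdpn and Ccnd2 at the other. The first axis of each plate was thus shared with library complexity, and the second axis of plate B with the wells that held endothelial markers.

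**Figure D4:**
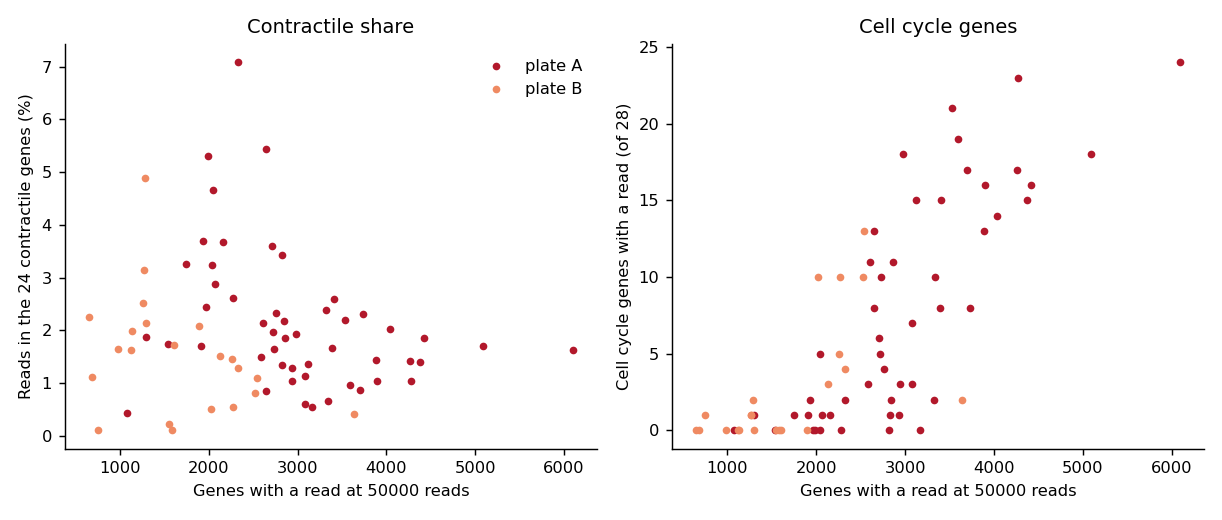
Contractile share of reads in percent (left panel, y axis) and number of 28 cell cycle genes with a read (right panel, y axis) against the number of genes seen at 50000 reads (x axis), with a point for each basal cell and plates A and B in different colours. The contractile share reached 7.08% in a cell of 2323 genes and the cell cycle count reached 24 in the cell with most genes, 6098.

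Plate A cells held a median of 5.5 of 28 cell cycle genes (0 to 24), plate B cells 1 (0 to 13) and luminal cells 2 (0 to 22). Mki67, the proliferation antigen, was seen in 29 basal cells and Top2a, the topoisomerase that untangles chromosomes, in 28, with both in 22 of the 72, all 22 of them on plate A. On plate A each was seen in 26 of 50 cells and 20 cells held neither, and on plate B they were seen in 3 and 2 of 22 cells. In 76 luminal cells the counts were 20, 21 and 15. On plate A, Mki67 and Top2a followed each other at rho 0.74. Over the list, 6 of 28 genes were higher in basal cells and 3 lower over all plates, whereas 1 was higher and 17 were lower on plate B. Over all genes tested 18.3% were higher, and on plate B 41.4% were lower. Mki67 moved from 1.32 to -4.62 and Cdc20 from 2.12 to -3.66. The number of cell cycle genes followed the number of genes detected at rho 0.77 on plate A and 0.70 on plate B, and the part of library complexity in it was not tested. Immediate early genes can rise while tissue is dissociated. Their list, which also holds heat shock genes, had 1 of 18 members higher and 8 lower, against 18.3% and 28.4% of all genes tested. On plate B 2 were higher and 7 lower, which is close to the 17.3% and 41.4% of all genes there. Fos was at -1.28, Jun at -1.34 and Junb at -1.44, with Jun at -1.67 and Junb at -2.18 on plate B, although 94.4% of basal cells held Fos.

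The spread of a gene between cells was taken as its coefficient of variation (CV, the SD over the mean) divided by the running median of genes of similar mean, so that 1 stands for a typical gene of that level. Contractile genes were typical, with a median of 1.10 over 20 genes on plate A and 0.99 on plate B. Basal transcription factors were slightly more even at 0.89 and 0.87, and housekeeping genes more so at 0.65 and 0.76. Luminal markers in basal cells were less even at 1.56 and 1.38, over the 10 and 7 markers that reached 10 CPM. In 11 of the 20 luminal markers a single cell held over 50% of the basal reads. Basal cells 13, 20 and 90, set apart for their luminal markers, were kept here, and their part in this spread was not tested. The measure was related between plates with rho 0.34 over 5132 genes of at least 10 CPM on both, and with rho 0.47 over the 958 genes of at least 100 CPM on both in which no cell held over 50% of reads. Within the program Myl6 (0.48 on plate A, 0.42 on plate B), Cxcl14 (0.55 and 0.34), Actn1 (0.56 and 0.47) and Krt5 (0.74 and 0.51) were even for their level, Acta2 was typical (1.04 and 0.97), and Nrg1 (1.59 and 1.24), Wif1 (1.51 and 1.42) and Ccnd2 (1.73 and 1.69) were uneven on both plates.

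Of the 10 most even genes, 7 are annotated as pseudogenes, transcribed or not, and 8 carry a Gm number, and with Mir682 and Eif2s2 they were all under 1 on plate B too. Whether reads of abundant genes with near-identical copies were counted at such loci was not tested. Gapdh, a housekeeping gene, was seen in 9.72% of basal cells and 14.5% of luminal cells, and no value here links it to these loci. The 10 most uneven genes were Pi4ka, Marf1, Hipk1, Ankrd11, Ctdspl, Smc4, Nr4a2, Mfge8, Myh11 and Sema5a. In 5 of them the highest cell was basal cell 17 or 54, the wells with more than 50% mitochondrial reads. Without those wells Myh11 went from 2.74 to 1.01 and Pi4ka from 4.46 to 0.861. Basal cell 47, which held 3 of the 6 basal markers and 383504 reads, was highest for Hipk1, Ctdspl, Mfge8 and Sema5a. Only Hipk1 and Ctdspl stayed above 1 on plate B, at 1.36 and 1.10.

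**Figure D5:**
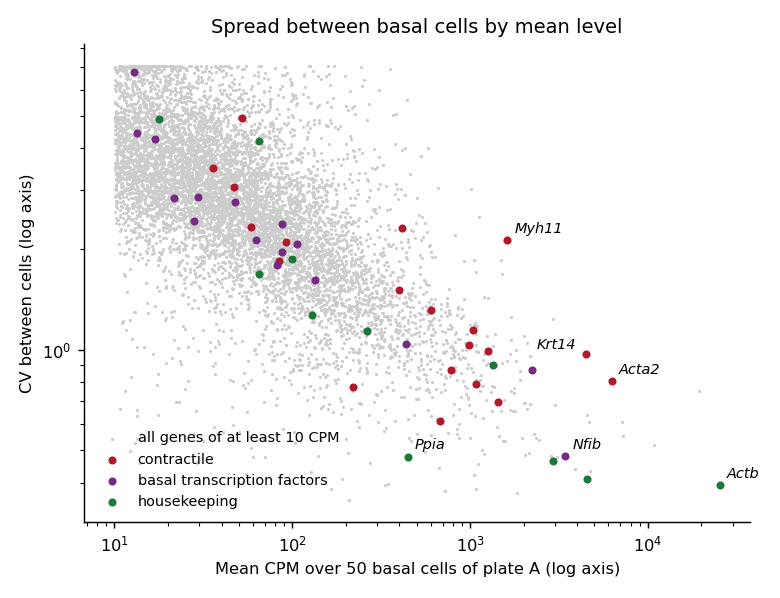
Coefficient of variation between the 50 basal cells of plate A (y axis, log scale) against the mean CPM over those cells (x axis, log scale) for genes of at least 10 CPM, with contractile, transcription factor and housekeeping genes in colour. Acta2 and Krt14 lay among genes of similar mean, with CVs of 0.804 and 0.955, while Myh11, at 2.12, lay above them and Actb and Nfib lay lower, at 0.393 and 0.479.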

How the data were processed

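RNA was measured in 96 basal and 90 luminal wells. The authors mapped read pairs to mm10 with Subread, counted them per gene by featureCounts against the RefSeq annotation built into it, and deposited raw counts per gene and cell. Strand use and the handling of reads with several matches are not given in the sources used here, so overlapping genes and near-identical copies may share reads. Of 27179 identifiers, 25275 matched a RefSeq symbol (GRCm38.p6), and the 1904 others, with 1.94% of counts, were left out.

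Genes of the mitochondrial genome (15) and of ribosomal proteins (124) were taken out of the deposited counts, the thresholds of the report were applied to cells, and genes of at least 1 CPM in at least 3 cells were kept (14773). Doublets were not called, since the study inspected capture sites by microscope. No basal wells were duplicates of each other (smallest mean chi-square per gene between basal cells 61.1). Counts were summed per population, and cells were thinned to 50000 reads for detection. The CV used genes of at least 10 CPM, with a running median over 100 genes. With 1 sample per population the planned comparisons are ratios without a test. PCR reads without molecular identifiers are not independent molecules, so intervals cover counting error only. The ratio and CV steps were tested on simulated data.

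The members and lists were chosen with earlier results of these data known. Text names followed a rule: the 6 markers, examples from fixed lists, the 20 largest ratios, the 10 most even and uneven genes, component ends, core genes, and the 10 highest per length. Some list members are counted in their lists but not reported here by name. Alternatives covered cell and gene filters, plates, scaling, pseudocounts, depth and wells. Python 3.11.15, numpy 2.4.6, pandas 2.3.3 and scipy 1.17.1 were used, and edgeR 4.0.16 and DESeq2 1.42.0 (R 4.3.3) for scaling factors only.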

Additional observations from a re-analysis of the deposited data

Results flagged for a closer look

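The 24 basal wells below the read minimum are outside the comparisons, and they still held basal transcripts above the level in passing luminal cells. Summed over those wells, Krt14 stood at 899 CPM (95% Poisson interval 789 to 1020), against 47.5 CPM in luminal cells, and Krt5 at 37.6 CPM against 0.342 CPM. Acta2 stood at 301 CPM, Nrg1 at 677 CPM and Tpm2 at 150 CPM. Trp63 stood at 22.6 CPM on 6 reads (8.28 to 49.1), against 5.38 CPM. Each of these values was under that of the passing basal cells. The luminal keratin Krt18 stood at 440 CPM there, against 122 CPM in passing basal cells, and the luminal marker Prlr at 165 CPM against 60.7 CPM. Krt8, another luminal keratin, stood at 41.4 CPM against 168 CPM. These sums rest on few reads, with 239 for Krt14, 80 for Acta2, 117 for Krt18, 44 for Prlr and 11 for Krt8.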

How the results depend on the processing

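No paired analysis was possible because numbers in labels count cells, and no result comes from a test. The counts of higher genes and of higher list members kept within 1.5 times their main value under every alternative but a pseudocount of 10 CPM, which gave 1454 higher genes in place of 2697. TMM and median-of-ratios scaling moved the median of all genes by 0.15 and 0.17, and both gave 101 list members in place of 97. The core of 173 genes was 538 without thinning, 323 in plate A cells and 103 in plate B cells. The median contractile share of 1.70% was 1.52% with mitochondrial and ribosomal genes kept, 1.86% on plate A, 1.48% on plate B, 1.21% without Acta2, and 1.96% and 1.87% without the wells that held markers of other cell types, by a wide rule (24 wells) and by the narrow rule of 10 wells added after seeing the data. The contractile CV ratio of 1.10 was 1.01 with at least 100000 reads and 1500 genes per cell, 1.05 with those genes kept, 1.07 and 1.06 without the wide and narrow wells, 0.99 on plate B, 1.11 at 50000 reads per cell, 1.13 over genes of at least 100 CPM and 1.01 without each gene's highest cell. Of 122 genes named with a ratio, 10 that were called higher or lower turned in sign under the 13 alternatives, all but Ednrb on plate B. A turn was not counted for genes with a main ratio between -1 and 1. On plate B Des turned to 0.24, Aff3 to -1.71, Lamb3 to -1.14, Itga2 to -0.24 and Wnt5b to -3.51. Vegfa turned to -1.18 there, Egfr to -0.19, Mki67 to -4.62 and Cdc20 to -3.66. Ednrb turned to -1.31 between plates A and C. The cause was not tested. Leaving out replicates was not possible with 1 sample per population.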

Other observations

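Several genes that lie outside the lists of basal functions were seen in a larger share of basal than of luminal cells. Fbln2, a matrix protein kept on the fibroblast list, was seen in 80.6% of basal and 15.8% of luminal cells with a log2 ratio of 3.61, and 3.90 on plate B. Mmp2, a matrix protease on the same list, was seen in 36.1% and 3.95% with a ratio of 2.08, and 1.87 without the 10 wells set apart. Over that list 4 of 20 genes were higher and 11 lower, and on plate B 5 were higher and 12 lower. Without the 10 wells, 1 of which was chosen by this list, 3 were higher and 16 lower. No passing luminal well was left out there, although the highest luminal cell held 17 fibroblast markers. Icam1, an adhesion molecule for leukocytes, was seen in 86.1% of basal and 28.9% of luminal cells at a ratio of 3.09. Apoe, the lipid carrier, and Ptprs, a receptor phosphatase, which were chosen after their values were seen, had reads in 97.2% and 100% of basal cells and in 36.8% and 68.4% of luminal cells, with ratios of 3.67 and 3.85. Of the other marker lists, 7 of 19 pericyte genes were higher and 9 lower, 2 of 7 measured immune genes were higher and 2 lower, and 5 of 8 Schwann cell and adipocyte genes were higher and none lower. On plate B the counts for these lists were 11 higher and 0 lower, 2 and 2, and 4 and 3. Without the 10 wells, all chosen by endothelial, fibroblast or luminal markers, they were 3 higher and 14 lower, 1 and 2, and 4 and 3. Passing luminal wells were again all kept, and the highest of them held 16 pericyte markers. Beside these lists and the fibroblast list, the shares over all genes tested were 18.3% higher and 28.4% lower. On plate B those shares were 17.3% and 41.4%.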
